A study of Rattus norvegicus with 9 samples.

Results

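The heat shock proteins and co-chaperones of the cytosol and the mitochondrion were followed in rat lung through 8 genes: Hspa1a, Hspa8, Hspb1, Dnajb1, Stip1, Fkbp4, Hspd1 and Hspe1. Every probe set of the array that its annotation gives to one of these symbols was taken, which gave 22 of the 8740 probe sets that are not controls, and 21 of them were among the 5244 that passed a limit on low signal. Total RNA of rat lung was measured on oligonucleotide arrays after spontaneous breathing or mechanical ventilation, with oxygen at 21% or at 100%. The 4 groups are called spontaneous 21%, spontaneous 100%, mechanical 21% and mechanical 100%, and each held 2 samples with the letters a and b. The letter b sample of mechanical 100% was measured on 2 arrays, which were averaged and counted once. The sources used here give no strain, age, length of exposure or ventilator setting. Whether letters a and b stand for different animals is not stated in the labels, and the p-values therefore reflect the spread of these samples alone, possibly a technical one.

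Levels are intensities as deposited, on a linear scale, and changes are differences of log2(intensity + 40), which understate the change of dim probe sets. Calls are made by limma with Benjamini-Hochberg adjusted p under 0.05 over all 5244 tested probe sets. The deposited arrays had nearly equal trimmed means, from 800.5 to 801.1, but their brightest signals differed: the 3 mechanical 100% arrays had a 99th percentile of 7072 to 8357, and the remaining arrays one of 9931 to 14581. A line for a lot batch, which names no lot, stands in the descriptions of 4 arrays, both of spontaneous 21% and 2 of the 3 of mechanical 100%, so its presence runs nearly along with the way the factors combine. None of the 8 lung markers was at or below 0 in all samples of a group, and their summed level ran from 82658 to 98467 in spontaneous 21% and from 44898 to 47795 in mechanical 100%. Bright probe sets carry these sums: Sftpb, the brightest of the 8, had means of 21077 and 5758 in these groups. Only the dimmer Aqp5 was not lower in mechanical 100%, with means of 1258 and 1413. In whole tissue, fewer cells of a type and less RNA per cell cannot be told apart, and the part of the array scaling in these sums was not tested.

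Heat shock proteins hold unfolded proteins and pass them on for folding. The Hsp70 proteins bind short stretches of a client in a cycle driven by ATP, J proteins such as Dnajb1 deliver the client and start the cycle, and Stip1 hands it from Hsp70 to Hsp90, where immunophilins such as Fkbp4 act. Hspd1 forms the chaperonin barrel of the mitochondrial matrix, and Hspe1 is the lid of that barrel. Many of these genes are switched on by heat shock factor 1, which binds arrays of short inverted units in promoters and responds to damaged protein, as under oxidant stress.

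The promoters are shown because these units are what the inducible genes of the family are known to share. Windows from 250 bases before to 50 after the transcript start were taken from RefSeq for the GRCr8 build, and all 8 genes were matched. They were searched on both strands, since each pattern is its own reverse complement, for a pair of units facing head to head (GAANNTTC) or tail to tail (TTCNNGAA). The capitals mark the matches, and each line gives the stretch around the match nearest the start, read 5′ to 3′ on the strand of the gene.
Hspa8: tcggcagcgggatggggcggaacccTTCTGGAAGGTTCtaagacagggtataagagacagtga
Hspb1: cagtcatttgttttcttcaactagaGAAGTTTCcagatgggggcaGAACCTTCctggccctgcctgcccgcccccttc
Dnajb1: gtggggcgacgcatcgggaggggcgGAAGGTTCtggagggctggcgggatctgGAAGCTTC
Stip1: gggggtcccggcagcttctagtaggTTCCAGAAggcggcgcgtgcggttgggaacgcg
Fkbp4: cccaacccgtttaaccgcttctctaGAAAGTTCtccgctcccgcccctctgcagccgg
Hspd1: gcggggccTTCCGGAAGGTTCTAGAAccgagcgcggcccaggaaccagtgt
Hspe1: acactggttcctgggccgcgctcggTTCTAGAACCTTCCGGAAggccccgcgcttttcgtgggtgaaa
These stretches lie at chr8:50080434-50080496 (plus strand), chr12:26432378-26432455 (minus), chr19:41431117-41431177 (minus), chr1:213657630-213657687 (minus), chr4:163398023-163398080 (minus), chr9:64084237-64084287 (minus) and chr9:64084237-64084304 (plus), in the order printed.

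A pair of either kind was present in the windows of 7 of the 8 genes and in 15.9% of all 33469 windows of the same length. The head-to-head pair alone was in 8.59% of all windows and the tail-to-tail pair in 8.77%, and the patterns can overlap within a run. Runs of 3 units, in which a head-to-head and a tail-to-tail pair share their middle unit, were in the windows of Hspa8, Hspd1 and Hspe1 and in 0.798% of all windows. Hspd1 and Hspe1 are neighbours on chromosome 9 read in opposite directions, their windows share 211 bases, and the same run of units appears in both, so it is 1 sequence and not 2. The window of Hspa1a, on chromosome 20 from 3859506 to 3859805, holds neither pair, which says only that these letters are not in it.

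**Figure D1:**
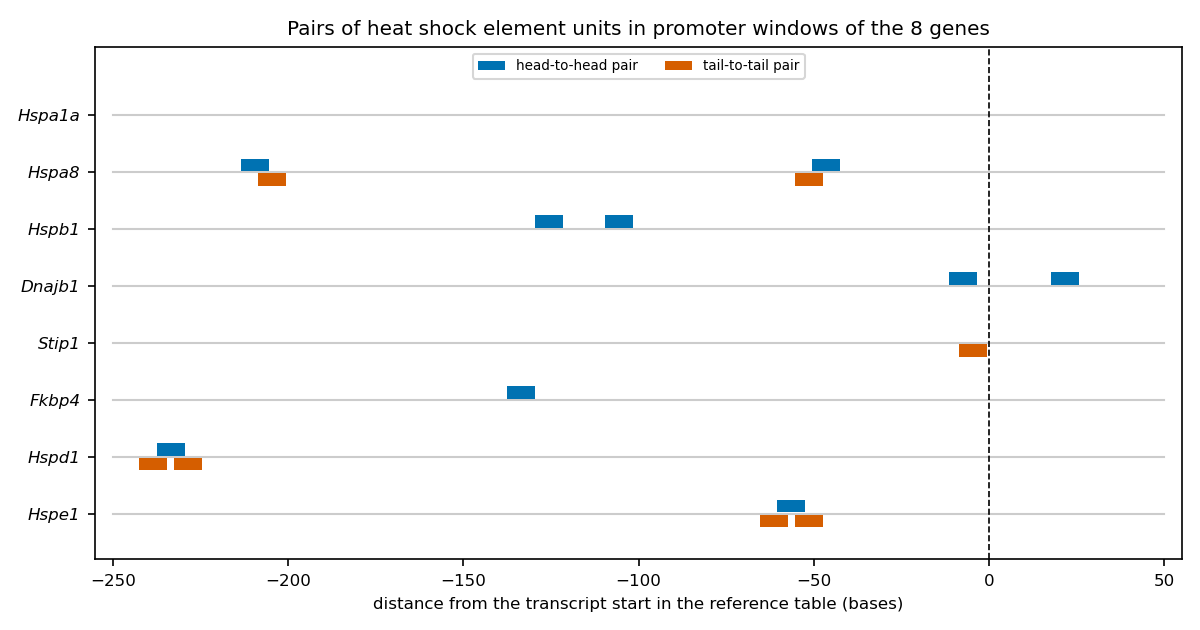
Positions of head-to-head (blue) and tail-to-tail (orange) pairs of units in the promoter window of each gene, with the distance from the transcript start in bases on the x axis and the start as a dashed line. The pairs of Dnajb1 and Stip1 lie at the start, the run of Hspe1 begins 65 bases before it, and no pair is drawn for Hspa1a.

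For oxygen, averaged over both ways of breathing, 15 of the 21 member probe sets were higher and 5 were lower with 100% oxygen, where 25.0% of all tested probe sets were called (12.8% higher and 12.2% lower). The median log2 change was 0.82 over the members and 0.05 over all tested probe sets. In spontaneous breathing 15 member probe sets were higher and 1 was lower, against 7.06% higher and 9.71% lower of all tested (16.8% in all). In mechanical ventilation 12 were higher and 5 were lower, against 20.7% and 14.4% (35.1% in all). Stip1, Fkbp4, Dnajb1 and Hspd1 rose by every probe set in both, most probe sets of Hspa1a rose, and both probe sets of Hspa8 and 3 of the 4 tested of Hspb1 fell on average. With the lot line as a fixed block, 7 of the 16 calls in spontaneous breathing were kept. Only mechanical 100% held arrays with and without the line, so that fit takes the effect of the line from this group alone. Calls were lost both where the rise grew (rc_AI136977_at of Fkbp4, from 1.20 to 1.55) and where it shrank (Z27118cds_s_at of Hspa1a, from 1.40 to 0.45).

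**Figure D2:**
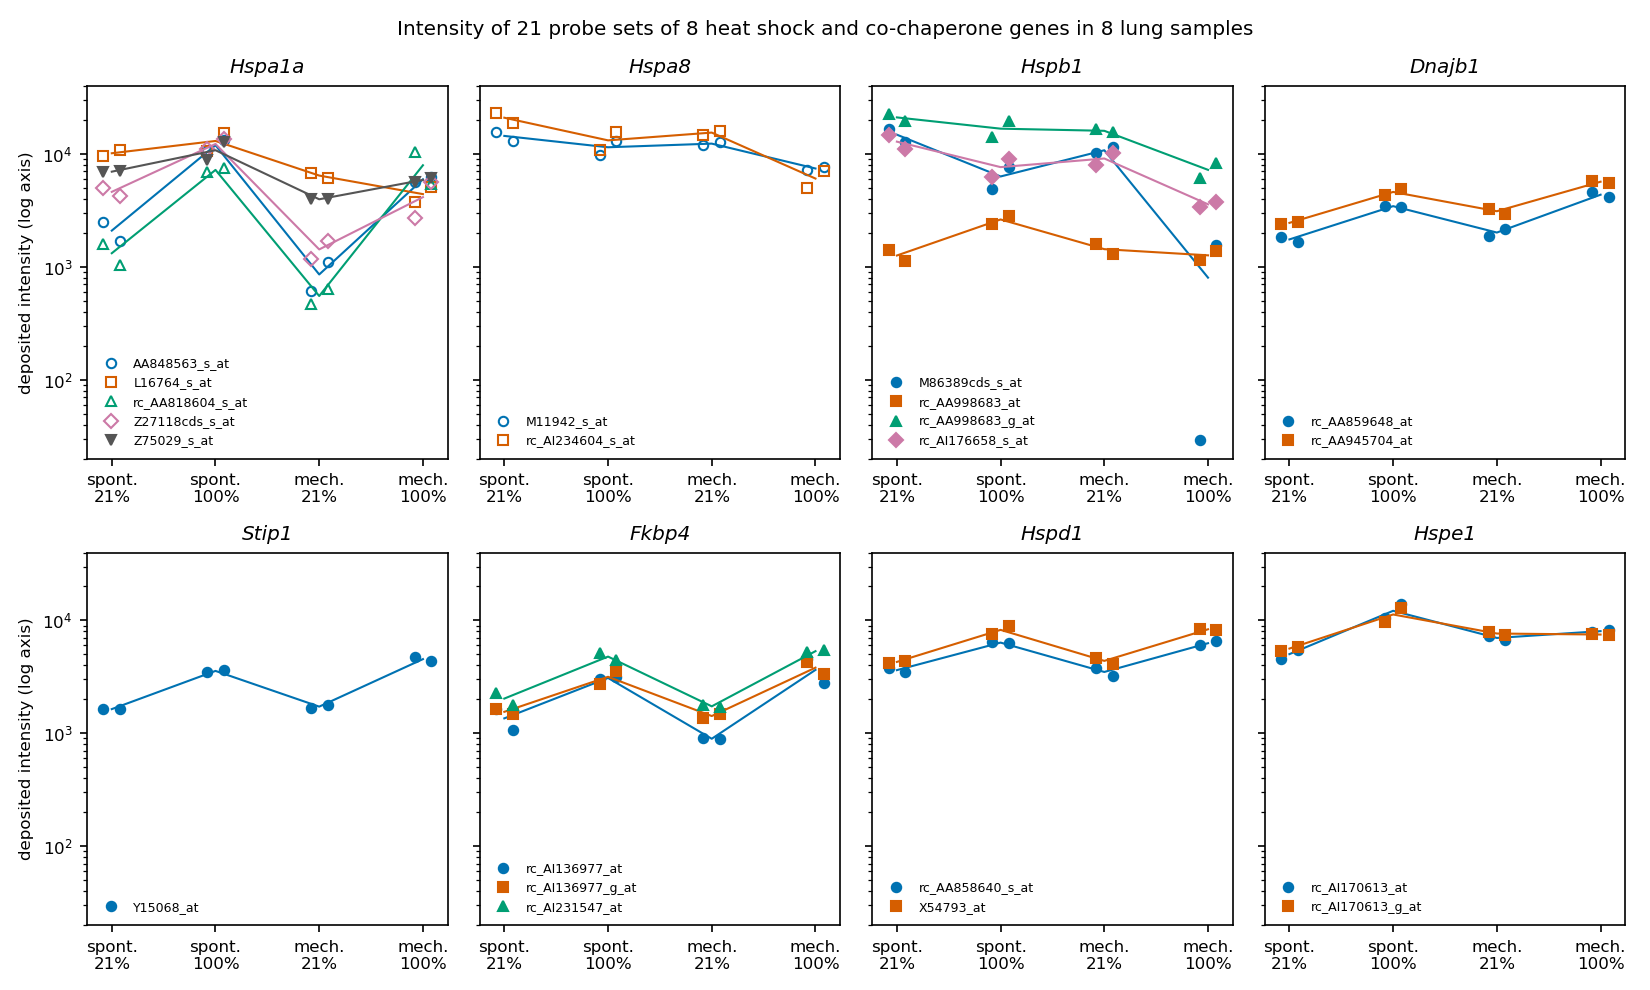
Deposited intensity (log axis) of the 21 tested probe sets in the 8 samples, in 1 panel per gene. Points are samples, letter a to the left of letter b, lines join the group means, and open symbols are probe sets annotated to a further gene; Stip1, Fkbp4, Dnajb1 and Hspd1 are high in both 100% oxygen groups, while Hspa8 and Hspb1 are lowest in mechanical 100%, except on the Hspb1 probe set rc_AA998683_at.

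Stip1, the adaptor between Hsp70 and Hsp90, measured 1626 and 1649 in spontaneous 21%, 3517 and 3625 in spontaneous 100%, 1682 and 1764 in mechanical 21%, and 4715 and 4368 in mechanical 100%. All 4 samples with 100% oxygen lay above all 4 with 21%. The rise was 1.11 ± 0.11 (SE) in spontaneous breathing (limma adjusted p = 0.00071) and 1.38 ± 0.11 in mechanical ventilation (adjusted p = 0.00014). The difference between these rises was 0.27 ± 0.15 and did not pass the threshold (adjusted p = 0.21). At 100% oxygen the mechanical samples were above the spontaneous ones by 0.34 ± 0.11 (adjusted p = 0.047), a call that was lost in each of the 8 fits that left out 1 sample (adjusted p from 0.056 to 0.20).

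Fkbp4, an immunophilin of Hsp90 complexes, has 3 probe sets, of which rc_AI136977_at and rc_AI136977_g_at come from the same expressed sequence tag. The third, rc_AI231547_at, measured 2280 and 1781 in spontaneous 21%, 5111 and 4454 in spontaneous 100%, 1773 and 1693 in mechanical 21%, and 5250 and 5435 in mechanical 100%. The oxygen groups did not overlap on it. Its rise was 1.23 ± 0.14 in spontaneous breathing (adjusted p = 0.0017) and 1.60 ± 0.14 in mechanical ventilation (adjusted p = 0.00026). The other probe sets rose by 1.20 and 1.00 in spontaneous breathing and by 1.94 and 1.39 in mechanical ventilation. In spontaneous breathing the call of rc_AI136977_at was lost without spontaneous 21% b, spontaneous 100% a or spontaneous 100% b (adjusted p from 0.068 to 0.084), and that of rc_AI136977_g_at without spontaneous 100% b (adjusted p = 0.051). No probe set of Fkbp4 passed the threshold for ventilation.

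Dnajb1, the inducible J protein that starts the Hsp70 cycle, is read by 2 probe sets. On rc_AA945704_at it measured 2403 and 2497 in spontaneous 21%, 4288 and 4921 in spontaneous 100%, 3283 and 2930 in mechanical 21%, and 5808 and 5540 in mechanical 100%. The lowest sample with 100% oxygen was above the highest with 21%. The rise was 0.90 ± 0.12 in spontaneous breathing (adjusted p = 0.0031) and 0.86 ± 0.12 in mechanical ventilation (adjusted p = 0.0018). The second probe set, rc_AA859648_at, rose by 0.96 and 1.10. Ventilation averaged over oxygen gave 0.32 ± 0.08 on the first probe set, which missed the threshold (adjusted p = 0.054) and passed it in 5 alternatives, among them quantile normalization (0.41, adjusted p = 0.028).

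Hspd1, the mitochondrial chaperonin, measured 4180 and 4400 on X54793_at in spontaneous 21%, 7629 and 8873 in spontaneous 100%, 4630 and 4131 in mechanical 21%, and 8398 and 8303 in mechanical 100%. Levels at 100% oxygen were 1.92 and 1.91 times those at 21% in spontaneous and mechanical breathing. The log2 rises were 0.93 ± 0.12 in both (adjusted p = 0.0027 and 0.0014), and their difference was -0.01 ± 0.17 (adjusted p = 0.98). The second probe set, rc_AA858640_s_at, rose by 0.80 and 0.84. After quantile normalization the rises on X54793_at were 0.74 and 1.42, and the difference of 0.68 was called (adjusted p = 0.0058), as was that of rc_AA858640_s_at (0.46). With the lot line as a block, the rises in spontaneous breathing were 0.90 on X54793_at and 0.58 on rc_AA858640_s_at, and neither was called (adjusted p = 0.052 and 0.13).

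Hspe1, the lid of the same chaperonin and the neighbour of Hspd1 on the chromosome, behaved otherwise in the ventilated rats. On rc_AI170613_at it measured 4579 and 5480 in spontaneous 21%, 10464 and 13881 in spontaneous 100%, 7348 and 6645 in mechanical 21%, and 7873 and 8208 in mechanical 100%. The spontaneous 100% samples stood above all others. The rise with oxygen was 1.26 ± 0.16 in spontaneous breathing (adjusted p = 0.0026) and 0.20 ± 0.16 in mechanical ventilation (adjusted p = 0.37), and the difference between these changes was -1.06 ± 0.23 (adjusted p = 0.011). The second probe set, rc_AI170613_g_at, is from the same expressed sequence tag and no independent check, and it gave 0.98, -0.03 and a difference of -1.02 ± 0.21 (adjusted p = 0.0098).

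The Hspe1 pattern moved with the scaling of the arrays. After quantile normalization the oxygen rise in mechanical ventilation passed the threshold on both probe sets (0.75 and 0.50), and the difference between the changes shrank to -0.37 (adjusted p = 0.068) and -0.38 (adjusted p = 0.045). With the lot line as a block that difference was -0.69 and -0.75 and not called (adjusted p = 0.39 and 0.32). The rises in spontaneous breathing were 1.045 and 0.83 with that block and were not called either (adjusted p = 0.076 and 0.11). After cyclic loess normalization the rise in mechanical ventilation was called on rc_AI170613_at (0.51, adjusted p = 0.021) but not on rc_AI170613_g_at (0.28, adjusted p = 0.092). The fall with ventilation at 100% oxygen, -0.58 on both probe sets as deposited, became 0.02 and 0.0034 after quantile normalization. Without mechanical 100% a or mechanical 21% b, the average oxygen call of rc_AI170613_g_at was lost (adjusted p from 0.055 to 0.061).

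Hspa1a, the stress-inducible Hsp70, has 5 probe sets whose changes with oxygen differed in size, and not all were called. Of the 5 probe sets, 4 are annotated to Hspa1b as well, a near-identical copy, so their signal cannot be split between the genes, and only Z75029_s_at carries the single symbol. Whether that probe set reads Hspa1a alone was not tested. On rc_AA818604_s_at the gene measured 1598 and 1040 in spontaneous 21%, 6978 and 7460 in spontaneous 100%, 471 and 631 in mechanical 21%, and 10510 and 5368 in mechanical 100%. On AA848563_s_at the values were 2502 and 1685, 10639 and 13257, 609 and 1102, and 5669 and 6247 in the same order of groups. The oxygen groups did not overlap on either, and mechanical 21% was the lowest group on both.

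These probe sets rose with oxygen by 3.07 ± 0.22 (adjusted p = 0.00014) and 2.65 ± 0.20 (adjusted p = 0.00015), the largest rises of the member probe sets. Z27118cds_s_at rose by 1.41 ± 0.22 and Z75029_s_at by 0.58 ± 0.11 (adjusted p = 0.0048 and 0.011). L16764_s_at gave -0.12 ± 0.14 (adjusted p = 0.58). Its samples measured 9536 and 10749 in spontaneous 21%, 10718 and 15346 in spontaneous 100%, 6804 and 6063 in mechanical 21%, and 3762 and 5050 in mechanical 100%. Over the 8 samples the Pearson correlation of L16764_s_at was -0.03 with rc_AA818604_s_at and 0.72 with Z75029_s_at, as a description of points that share arrays and groups.

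Within a way of breathing the smaller Hspa1a rises were less secure. In spontaneous breathing the call of Z27118cds_s_at (1.40) was lost without either sample of the compared groups in turn (adjusted p from 0.061 to 0.11), and that of Z75029_s_at (0.61) in 7 of the 8 fits that left out 1 sample, all but the one without spontaneous 100% a (adjusted p from 0.059 to 0.12). In mechanical ventilation the call of Z27118cds_s_at was lost without mechanical 21% a (adjusted p = 0.064), and that of Z75029_s_at (0.56) without any 1 of the mechanical samples (adjusted p from 0.083 to 0.12). With the lot line as a block, the rises in spontaneous breathing were 0.45 for Z27118cds_s_at and 0.31 for Z75029_s_at, and neither was called (adjusted p = 0.59 and 0.54). Both large rises, of rc_AA818604_s_at and AA848563_s_at, were called in every fit tried for both ways of breathing.

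Hspa8, the constitutive Hsp70 of the cytosol, was lower with oxygen on average, and within a way of breathing it was called in mechanical ventilation only. The gene is read by 2 probe sets, both annotated to Haus8l2 as well. The first, rc_AI234604_s_at, measured 23048 and 18828 in spontaneous 21%, 10775 and 15610 in spontaneous 100%, 14815 and 16106 in mechanical 21%, and 4982 and 7124 in mechanical 100%. Both mechanical 100% samples were below all others. The oxygen change was -0.68 ± 0.22 in spontaneous breathing (adjusted p = 0.070) and -1.38 ± 0.22 in mechanical ventilation (adjusted p = 0.0031), and the difference between them was not called (-0.70 ± 0.31, adjusted p = 0.13).

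The other Hspa8 probe set, M11942_s_at, changed by -0.54 ± 0.11 with oxygen on average (adjusted p = 0.013), and this call was lost without mechanical 100% a or mechanical 21% b (adjusted p from 0.053 to 0.054). After quantile normalization, which removes the difference in the brightest signals between arrays, it was -0.10 (adjusted p = 0.16). For rc_AI234604_s_at the same step left -0.66 (adjusted p = 0.016). On the 2 arrays of the mechanical 100% b sample the latter probe set read 8304 without the lot line and 5944 with it. In mechanical ventilation alone M11942_s_at changed by -0.73 with oxygen (adjusted p = 0.0098). That change was -0.13 after quantile and -0.32 after cyclic loess normalization, and -0.54 with the lot line as a block. None of these was called (adjusted p = 0.16, 0.053 and 0.089). On the arrays without the lot line it was -0.54, and for rc_AI234604_s_at -0.89 against -1.38 as deposited.

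Hspb1, a small heat shock protein, keeps unfolded proteins from clumping without using ATP. On rc_AA998683_g_at it measured 22723 and 19425 in spontaneous 21%, 14109 and 19386 in spontaneous 100%, 16530 and 15536 in mechanical 21%, and 6148 and 8308 in mechanical 100%. The spontaneous 100% samples overlapped the range of the 21% groups, while both mechanical 100% samples were far below it. The change with oxygen was -0.34 ± 0.19 in spontaneous breathing (adjusted p = 0.25) and -1.17 ± 0.19 in mechanical ventilation (adjusted p = 0.0034). On average it was -0.76 ± 0.14 (adjusted p = 0.0078), and -0.36 after quantile normalization (adjusted p = 0.052).

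The probe set rc_AI176658_s_at of Hspb1 fell with oxygen by 1.05 on the log2 scale on average (SE 0.15, adjusted p = 0.0038), and that call was kept in all 19 alternatives. In spontaneous breathing its change of -0.76 (adjusted p = 0.048) was called in 5 of 20 alternatives, and of the fits that left out 1 sample only in the one without spontaneous 100% b (adjusted p in the others from 0.052 to 0.21). M86389cds_s_at measured 16763 and 12865, 4912 and 7719, 10147 and 11413, and 29.2 and 1573 in the 4 groups, and on the 2 arrays behind the last value it read 2210 and 937. One of the mechanical 100% samples was close to 0, and both were below all others. Its average change of -3.16 ± 0.79 (adjusted p = 0.024) ranged from -4.27 to -2.06 when 1 sample was left out, and the call was lost without spontaneous 21% a, either spontaneous 100% sample or either mechanical 21% sample (adjusted p from 0.058 to 0.080).

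The Hspb1 probe sets did not all move alike. On rc_AA998683_at, from the same expressed sequence tag as rc_AA998683_g_at, the values were 1402 and 1116, 2409 and 2844, 1578 and 1288, and 1143 and 1382. It rose in spontaneous breathing (1.04 ± 0.18, adjusted p = 0.0080) and gave -0.18 ± 0.18 in mechanical ventilation (adjusted p = 0.47), with a difference of -1.22 ± 0.25 (adjusted p = 0.0092). The rise in spontaneous breathing was not called without spontaneous 100% b (adjusted p = 0.057) or with the lot line as a block (adjusted p = 0.13), and the difference was not called with that block (adjusted p = 0.26). Its average rise of 0.43 was lost in 6 of the 8 fits that left out 1 sample, all but those without spontaneous 21% a and mechanical 21% a (adjusted p from 0.053 to 0.12). The fifth probe set, rc_AA799438_at, shared with Asb2, had a mean level of 33.9 against a limit of 112.1 and was not tested.

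**Figure D3:**
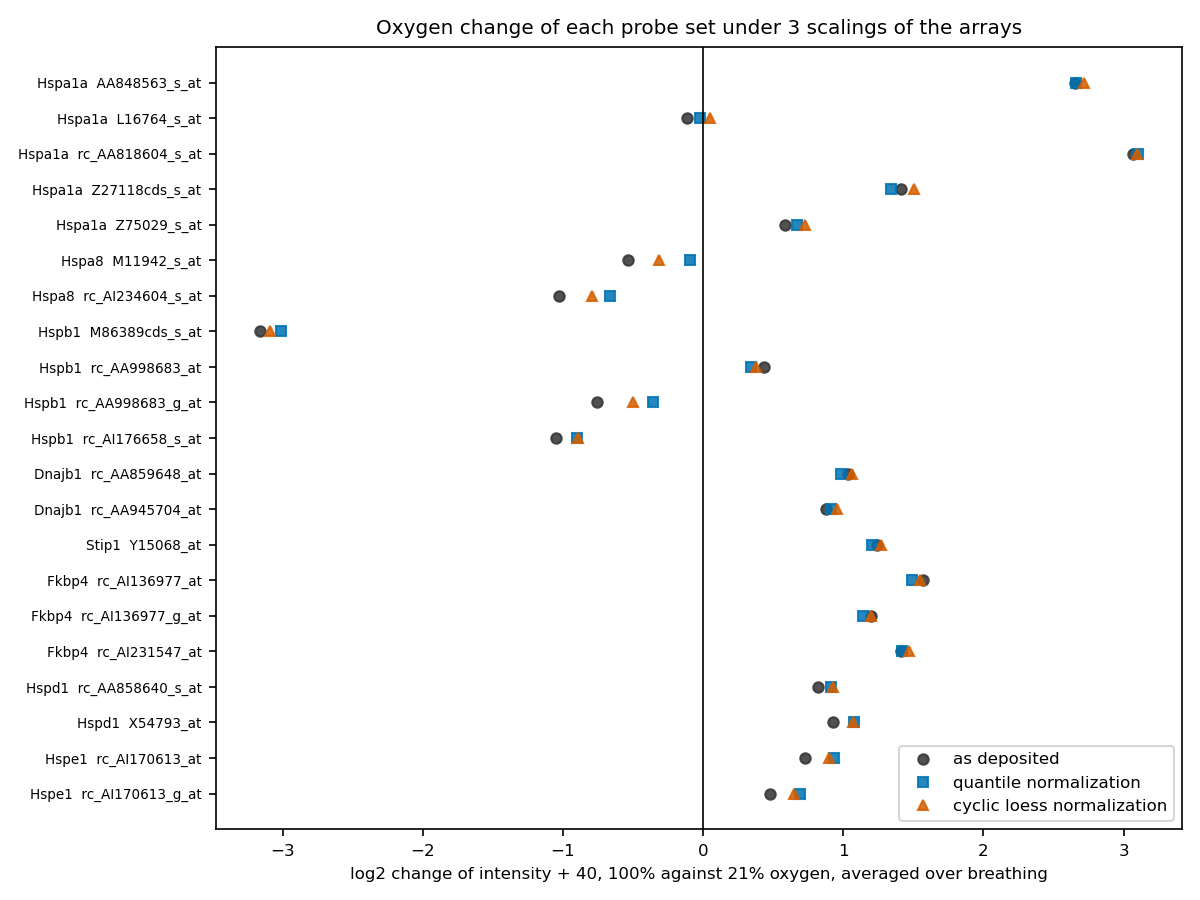
Log2 change with oxygen, averaged over breathing, of each of the 21 tested probe sets on the arrays as deposited (circles) and after quantile (squares) or cyclic loess (triangles) normalization. The rises of Stip1, Fkbp4, Dnajb1 and Hspd1 move little, whereas M11942_s_at of Hspa8 goes from -0.54 as deposited to -0.10 after quantile normalization.

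For ventilation, averaged over oxygen, none of the 21 member probe sets was higher and 7 were lower, where 4.84% of all tested probe sets were higher and 4.25% lower (9.10% in all). The median log2 change was -0.42 over the members and 0.04 over all tested. The 7 were 4 of the 5 probe sets of Hspa1a, 1 of Hspa8 and 2 of Hspb1. After quantile normalization 2 were higher, X54793_at of Hspd1 and rc_AA945704_at of Dnajb1, and 5 were lower. Without the filter on low signal 2 were lower, and 4 were lower without mechanical 100% a, spontaneous 100% b or either mechanical 21% sample.

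Hspa1a was lower in the ventilated lungs by 3 of its 5 probe sets at both oxygen levels, by rc_AA818604_s_at at 21% oxygen only and by L16764_s_at at 100% only. Z75029_s_at, the probe set annotated to Hspa1a alone, measured 6936 and 6995 in spontaneous 21% and 3965 and 3966 in mechanical 21%. It measured 8920 and 12655 in spontaneous 100% against 5617 and 6154 in mechanical 100%. At each oxygen level the ventilated samples lay below the spontaneous ones. The change averaged over oxygen was -0.83 ± 0.11 (adjusted p = 0.0055), and Z27118cds_s_at gave -1.67 ± 0.22, L16764_s_at -1.11 ± 0.14 and AA848563_s_at -1.14 ± 0.20 (adjusted p = 0.0048, 0.0041 and 0.016).

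The call of AA848563_s_at was lost without mechanical 100% a or spontaneous 100% b (adjusted p from 0.052 to 0.069). The probe set rc_AA818604_s_at gave -0.56 ± 0.22, which was not called (adjusted p = 0.16): the change was -1.18 ± 0.32 at 21% oxygen and 0.06 ± 0.32 at 100%. L16764_s_at went the other way, with -0.65 ± 0.20 at 21% and -1.56 ± 0.20 at 100%, and a difference of -0.91 ± 0.28 (adjusted p = 0.044) that turned to 0.24 with the lot line as a block. That difference was also lost in 6 of the 8 fits that left out 1 sample, all but those without spontaneous 100% a and mechanical 100% b (adjusted p from 0.065 to 0.14).

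At 21% oxygen 4 member probe sets were lower with ventilation, all of Hspa1a, and none was higher, against 7.49% lower and 7.00% higher of all tested (14.5% in all). Without spontaneous 21% a or mechanical 21% a, none of the 21 was called, and without spontaneous 21% b or mechanical 21% b 2 were. After quantile normalization 3 were lower and 2 were higher, the latter being those of Hspe1. At 100% oxygen 12 were lower and 1 was higher, against 10.4% lower and 16.6% higher (26.9% in all). The 12 were 4 of Hspa1a, both of Hspa8, all 4 tested of Hspb1 and both of Hspe1. After quantile normalization the split was 8 lower and 4 higher.

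Ventilation at 100% oxygen also rested on single samples and on the lot line. Leaving out spontaneous 100% b left 3 calls, mechanical 100% a 5 and mechanical 100% b 8. With the lot line as a block, or on the arrays without the line alone, 2 were called. The latter comparison has 1 array in mechanical 100%, which was assumed to vary like the other groups. For Hspb1 on rc_AA998683_g_at the fall of 1.22 as deposited was -0.77 on those arrays, and for Hspa8 on rc_AI234604_s_at the fall of 1.13 was -0.64.

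**Figure D4:**
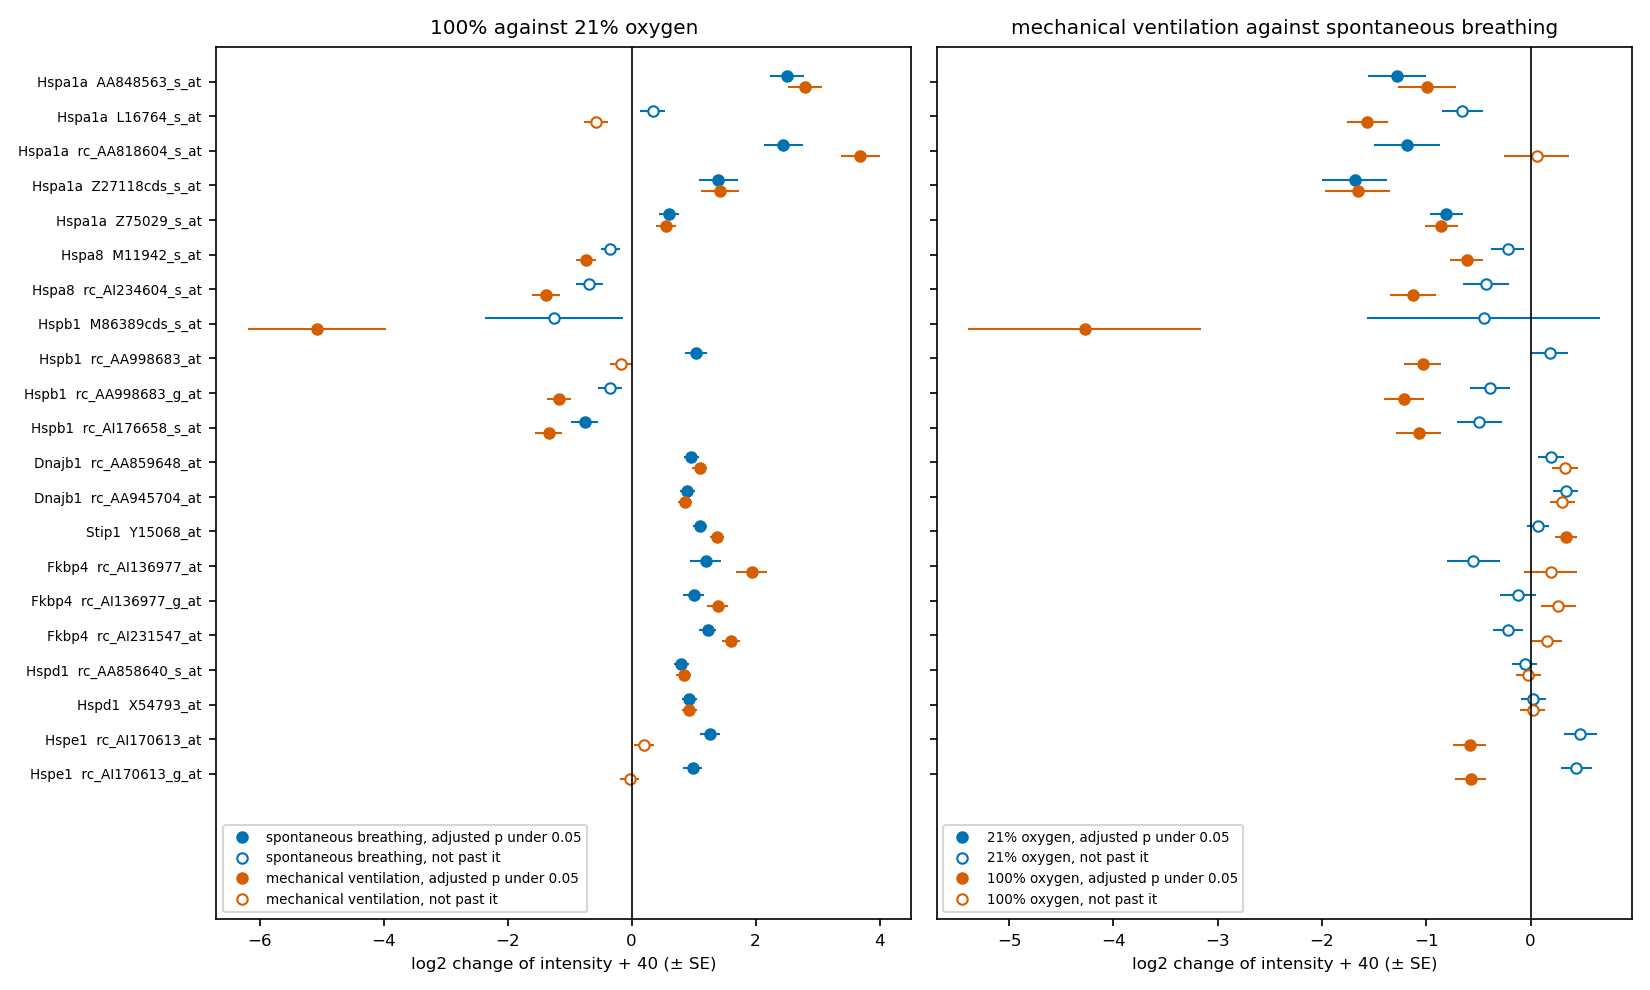
Log2 change ± SE of each tested probe set, with 100% against 21% oxygen on the left (blue in spontaneous breathing, orange in mechanical ventilation) and ventilation against spontaneous breathing on the right (blue at 21%, orange at 100% oxygen). Filled points passed the limma threshold. Stip1, Fkbp4, Dnajb1 and Hspd1 lie to the right of 0 in the left panel. In the right panel only Stip1 at 100% oxygen is filled among these genes. Hspa1a, Hspa8 and Hspb1 lie mostly to the left of 0 in the right panel.

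The interaction asks whether oxygen changed a gene by a different amount in ventilated and spontaneously breathing rats. It was called for 4 of the 21 member probe sets, all lower, against 16.9% higher and 10.5% lower of all tested (27.4% in all). These were the Hspe1 pair, rc_AA998683_at of Hspb1 and L16764_s_at of Hspa1a. After quantile normalization 4 were lower and 2, both of Hspd1, were higher, and with the lot line as a block none of the 21 was called by limma. Leaving out mechanical 100% b gave 8 calls.

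Across the 8 samples the members fell into profiles that followed these changes, given here as a description of points that share arrays and groups. Each gene was taken by its brightest tested probe set with a single symbol (Z75029_s_at for Hspa1a), and Hspa8, which has none, by rc_AI234604_s_at. Pearson's r among Hspd1, Dnajb1, Stip1 and Fkbp4 ran from 0.90 to 0.97. For Hspa8 and Hspb1 it was 0.98, and between Hspa8 and Stip1 it was -0.85. Among other genes with a single symbol, the closest to the mean profile of the members were Vps4a (r = 0.988), Hsph1, Morf4l2, Dnaja1 and Anxa4 (0.952). That mean includes Hspa8 and Hspb1, which ran against Stip1, so it is not a profile that all members share. Closest to Stip1 was Hmox1, heme oxygenase 1, at 0.986. Closest to Fkbp4 was a probe set of Hsph1 (0.992), to Dnajb1 the cytokine Il1b (0.975), to Hspd1 Nptxr (0.988), to Hspe1 Ndufa6 (0.967) and to Hspa1a Id3 (0.974). Hspa8 was closest to Apoe (0.999) and Hspb1 to the surfactant gene Sftpb (0.993), which measured 21077, 14743, 15747 and 5758 in the 4 groups.

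Other cytosolic and mitochondrial chaperones and the heat shock factor on the array gave 25 tested genes, each by its brightest probe set with 1 symbol. With oxygen, averaged over breathing, 10 were higher and 3 were lower, where 12.8% and 12.2% of all tested probe sets were, with a median log2 change of 0.39 against 0.05 over all tested probe sets. The difference between the oxygen changes in the 2 ways of breathing was called higher for 3 and lower for 2, where 16.9% and 10.5% of all tested were. Its presence nearly follows that of the lot line, and for these genes it was not checked with that line as a block. With ventilation none was higher and 3 were lower (Hsph1, Hsp90ab1 and Cct6a), where 4.84% and 4.25% of all tested were, with a median of -0.01 against 0.04. The ventilation changes of Hsph1 (-0.45) and Cct6a (-0.59) were not called in most fits without 1 sample (adjusted p up to 0.20 and 0.15). After quantile or cyclic loess normalization the Hsph1 fall was not called either. Another Hsph1 probe set, AA108277_at, was not part of these counts and did not share that fall at 100% oxygen. Its means were 1541 and 1356 in spontaneous and mechanical 21%, and 4522 and 4837 in spontaneous and mechanical 100%.

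Of the partners of the Hsp70 cycle, some rose with oxygen and others did not. St13, which steadies Hsp70 bound to its client, measured 2010 ± 1.62 (SD, n = 2), 3951 ± 156, 1852 ± 159 and 4171 ± 202 in spontaneous 21%, spontaneous 100%, mechanical 21% and mechanical 100%, a rise of 1.06 ± 0.08 (SE, adjusted p = 0.00017). Of 5 J proteins 2 were higher and 1 was lower, where 12.8% and 12.2% of all tested probe sets were. Dnaja4 and Dnaja1 rose by 1.55 ± 0.12 and 0.60 ± 0.12, while Dnaja2 fell by 0.42 on the log2 scale (SE 0.12, adjusted p = 0.033). Hsph1, an Hsp110 that recharges Hsp70, rose by 0.66 ± 0.11 on its brightest probe set, and Hspa4 of the same class by 0.36 ± 0.10 (adjusted p = 0.0054 and 0.033). On AA108277_at, the dimmer Hsph1 probe set, the means were 1541 and 4522 in spontaneous 21% and 100%, and 1356 and 4837 in mechanical 21% and 100%. For Hspa4 the change was -0.14 in spontaneous breathing and 0.85 in mechanical ventilation, and the difference was called (0.99 ± 0.20, adjusted p = 0.0084). The calls of Dnaja2 and Hspa4 were lost in several fits without 1 sample and without the filter (adjusted p up to 0.098 and 0.099). That of Hspa4 was also lost after quantile and cyclic loess normalization.

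Of 4 tested genes of Hsp90 and its co-chaperones, 1 was higher and 1 was lower with oxygen, and the rest were not called. Of all tested probe sets 12.8% were higher and 12.2% lower. Chordc1, a co-chaperone of Hsp90, rose by 1.00 ± 0.10 (adjusted p = 0.00076). Hsp90ab1, the constitutive Hsp90, measured 18689, 14830, 16002 and 6795 in the 4 groups and changed by -0.80 ± 0.13 (adjusted p = 0.0063). The change was -0.35 in spontaneous breathing (adjusted p = 0.24) and -1.24 in mechanical ventilation, with a difference of -0.89 ± 0.27 (adjusted p = 0.041). Like Hspa8 and Hspb1 it was lowest in mechanical 100%, and quantile normalization left -0.36, still called. With ventilation it changed by -0.67 ± 0.13 (adjusted p = 0.026), a call lost after quantile normalization and without spontaneous 21% a, mechanical 100% a, spontaneous 100% b or either mechanical 21% sample (adjusted p up to 0.11).

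Small heat shock proteins other than Hspb1 were higher with oxygen in 2 of 4 tested genes, where 12.8% of all tested probe sets were. Cryab, alpha B crystallin, went from 2684 to 5238 in spontaneous breathing and from 3369 to 4722 in mechanical ventilation, with a change of 0.72 ± 0.08 on average (adjusted p = 0.0013), and Cryaa rose by 1.00 ± 0.11. Cct6a of the cytosolic chaperonin rose by 0.97 ± 0.15 (adjusted p = 0.0047). In mitochondria Hspa9, the matrix Hsp70, gave -0.14 ± 0.18 with oxygen in spontaneous breathing (adjusted p = 0.62) and rose by 0.99 ± 0.18 in mechanical ventilation, with a difference of 1.14 ± 0.25 (adjusted p = 0.013). Its exchange factor Grpel1 gave -0.01 ± 0.13 and -0.65 ± 0.13, with a difference of -0.64 ± 0.18 (adjusted p = 0.030). Their averages of 0.43 and -0.33 were called, but both calls were lost in several fits that left out 1 sample. That of Hspa9 was also lost after quantile and cyclic loess normalization. The calls were kept in 8 and 13 of 19 alternatives (adjusted p up to 0.13 and 0.10). Hsf1, heat shock factor 1, gave -0.09 ± 0.31 in spontaneous breathing and rose by 1.36 ± 0.31 in mechanical ventilation (adjusted p = 0.86 and 0.011), with a difference of 1.45 ± 0.44 (adjusted p = 0.040) and an average of 0.63 ± 0.22 that was not called (adjusted p = 0.067). Its samples spread widely under ventilation, with 552 and 261 in mechanical 21% and 863 and 1312 in mechanical 100%. The 2 arrays behind the last value read 1691 and 934. The rise and the difference of Hsf1 were not checked in the alternative fits.

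A list for the endoplasmic reticulum, which answers to another stress pathway, held 12 tested genes: 11 chaperones and folding enzymes, and Ddit3, a stress transcription factor. With oxygen 3 of the 12 were higher and none was lower by limma, where 12.8% of all tested probe sets were higher, and the median was 0.06 against 0.05 over all tested. These were Ddit3 (0.59 ± 0.10), Hyou1 (0.40 ± 0.11) and Pdia4 (0.90 ± 0.09, adjusted p = 0.00064). For Pdia4 the change was 0.37 in spontaneous breathing (adjusted p = 0.079) and 1.42 in mechanical ventilation, and the difference was called (1.05 ± 0.18, adjusted p = 0.0042). Such a difference was called for 2 of the 12, both higher, where 16.9% of all tested were. It was not checked with the lot line as a block. The Hyou1 call was lost after quantile normalization and in most fits without 1 sample (adjusted p up to 0.088). With ventilation Hyou1 gave 0.45 ± 0.11 and Hsp90b1, the Hsp90 of this compartment, -0.58 ± 0.11 (adjusted p = 0.042 and 0.023), and leaving out any of several samples ended either call (adjusted p up to 0.13 and 0.089).

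Markers of other tissues varied between the groups in which the members were compared. The summed level of 15 skeletal muscle markers ran from 6474 to 6572 in spontaneous 21%, from 28866 to 29921 in spontaneous 100%, from 9097 to 9203 in mechanical 21% and from 3320 to 3467 in mechanical 100%, with Myh2 and Eno3 at or below 0 in all samples of the first group and Tnni2, Myh2 and Eno3 in those of the last. The 13 heart muscle markers summed to between 28512 and 30406 in spontaneous 100% and to between 13316 and 17970 elsewhere. The 8 fat markers summed to between 15704 and 17289 in mechanical 21% and to between 3697 and 7773 elsewhere, with Plin1 at or below 0 throughout. The 9 T lymphocyte markers reached 30964 to 32893 in mechanical 21% and 2037 to 3035 elsewhere. Neutrophil, red blood cell and squamous markers also differed between groups, and the lowest sums of all 3 were in mechanical 100%. Bright probe sets carry the neutrophil and red blood cell sums. S100a8 and S100a9 had means of 7863 and 10192 in spontaneous 21% and of 6470 and 6431 in mechanical 100%. The dimmer RatNP-3b, Defa5 and Cxcr2 were higher in mechanical 100% (279, 225 and 262) than in spontaneous 21% (18.8, 146 and 220). Alas2 of the red blood cell list was not lower either (6176 against 5918). Muscle is rich in chaperones such as Cryab, and the part of these other tissues in the changes of the members was not tested.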

How the data were processed

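The intensity of each probe set was taken from the table deposited by the authors, which holds 8799 probe sets on 9 arrays; the software behind it was not given in the sources used here. The 59 controls were left out, values below 0 were set to 0, log2(value + 40) was taken, and the lowest 40% of probe sets by mean were not tested. The 2 arrays of mechanical 100% b were averaged on the log2 scale for the fit and as intensities for the levels. The fit of group means used limma (3.58.1, under R 4.3.3) and its moderated test with a variance trend, leaving 4 residual degrees of freedom; p-values were adjusted by Benjamini-Hochberg over the probe sets tested. The procedure was tested on simulated data. Figures used matplotlib 3.10.9.

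The members and lists were chosen with earlier results of these data known. All member probe sets are named; of the other lists up to 2 genes per list and direction with the smallest p for either average contrast, plus the genes of highest correlation. Hsf1 was named outside that rule after its values were seen. Symbols came from the array annotation, with 1 symbol for 7006 probe sets, several for 308 and none for 1426. Promoters came from RefSeq. Roles of genes are general knowledge.

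Alternatives were cyclic loess or quantile normalization, an offset of 8 or of 80, a filter of 60% or none, either array alone, the letter or lot line as a block, no trend, only the groups compared, and each sample left out. For the lot line the 9 arrays were kept apart.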

Additional observations from a re-analysis of the deposited data

Results flagged for a closer look

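Each of 4 member probe sets changed with oxygen by different amounts in ventilated and spontaneously breathing rats, by limma's test of the difference itself, which is 4 of 21, where 27.4% of all tested probe sets were called. On the 2 Hspe1 probe sets, which share a source sequence, it was -1.06 ± 0.23 (SE, adjusted p = 0.011) and -1.02 ± 0.21 (adjusted p = 0.0098). As deposited, their rise with 100% oxygen was called in spontaneous breathing alone. That rise was not called with the lot line as a block, and after quantile normalization the rise was called in both ways of breathing. On rc_AA998683_at of Hspb1 the difference was -1.22 ± 0.25 (adjusted p = 0.0092), while the other probe set of the same source sequence gave -0.83 ± 0.27 (adjusted p = 0.056). On L16764_s_at of Hspa1a it was -0.91 ± 0.28 (adjusted p = 0.044), whereas the remaining Hspa1a probe sets lay between -0.05 and 1.24 and were not called. The presence of the lot line runs nearly along with this difference, and with that line as a block 0 of the 21 were called by limma.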

How the results depend on the processing

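Of 139 recomputed counts of called member probe sets, 116 stayed within 1.5 times the value reported; of 2919 recomputed log2 changes, 2618 kept their side of the threshold and 3 that were called as reported turned sign; sign changes of values not called are not counted here. With the lot line as a fixed block, 7 were called for oxygen in spontaneous breathing, 1 for ventilation at 21% oxygen, 2 for ventilation at 100% and 0 for the interaction, and L16764_s_at turned to 0.24. Without the filter the counts were 2 for ventilation on average, 0 at 21%, 4 at 100% and 2 for the interaction. Cyclic loess gave 7 at 21%. Without the trend 8 were called at 100%. On arrays without the lot line, an alternative chosen after seeing the data, 2 were called at 100%. Quantile normalization turned Hspe1 with ventilation at 100% to 0.024 and 0.0034. The counts over all tested probe sets in the alternative fits are not given here. Whether the members lost more calls than other probe sets was therefore not tested. The cause of these shifts was not tested either.

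Leaving out 1 sample gave from 16 to 19 calls for oxygen on average, 11 to 15 in spontaneous breathing, 14 to 18 in mechanical ventilation, 4 to 8 for ventilation on average, 0 to 6 at 21%, 3 to 12 at 100% and 3 to 8 for the interaction. With the letter as a replicate block the counts were 19, 15, 18, 7, 4, 12 and 4 in that order; the letters did not pair the samples (correlations of deviations from -0.13 to 0.07). Quantile and loess normalization moved the median change of all probe sets from 0.14 to 0.01 and -0.01 for oxygen in mechanical ventilation, from 0.13 to -0.01 and -0.03 for ventilation at 100%, and from 0.15 to -0.005 and -0.04 for the interaction.

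With 2 samples a group the number of arrays limits the precision, and signal over background could not be read because no detection calls were used here.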
